A study of Mus musculus with 12 samples.

Results

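Cre-positive mouse embryonic fibroblasts that had received ethanol, the solvent vehicle of the study, were compared with untreated Cre-positive fibroblasts across all genes. The comparison rests on 4 of the 12 RNA libraries of the series, 2 per group. The ethanol libraries are numbered 3 and 4 and the untreated libraries 7 and 8. Both groups carried the RosaCreERT2 allele, a Cre recombinase that is active only when a tamoxifen metabolite such as 4-hydroxytamoxifen (4-OHT) is bound, and loxP-flanked ("floxed") alleles of Ssb1 and Ssb2, labelled "Cre +ve" with Ssb1 Fl/F and with Ssb2 Fl/Fl. Neither group received 4-OHT, so the floxed genes were intact by design and the comparison holds the vehicle and the culture around it without deletion. The cells were immortalised with the SV40 large T antigen and came from C57BL/6 embryos. RNA of the ethanol group was taken 5 days after the vehicle was given, and the label of the untreated group gives no time, so exposure to ethanol and days of culture cannot be told apart. The other groups were Cre-positive cells given 4-OHT and 3 groups of Cre-negative cells (labelled "Cre -ve" with Ssb1 Fl/Fl and with Ssb2 Fl/Fl) that were untreated, given ethanol or given 4-OHT. Whether the 2 libraries of a group stem from different cultures is not stated. The tests therefore see only the variation between libraries within pairs, pooled over all 6 groups of the series, and that variation could be technical.

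Several gene programmes of fibroblasts are read in what follows. Type I interferons signal through a transcription factor complex that includes STAT2 and IRF9, which binds the interferon-stimulated response element and turns on antiviral genes, and many cells keep a low level of this signalling without infection. The transcription factors SREBP1 and SREBP2 drive the enzymes of fatty acid and cholesterol synthesis, and NRF2 drives enzymes that detoxify electrophiles and supply NADPH. Growth factors and contact with a stiff substrate induce immediate-early genes, targets of SRF such as the contractile proteins of myofibroblasts, and targets of YAP and TEAD.

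The genes targeted by the floxed alleles served as a check of the labels. Nabp1 (the label's Ssb2; GRCm38 chr1:51465862-51478425) was read at 14.5 and 15.9 CPM (a gene's share of its library's reads, with library sizes scaled by TMM, the trimmed mean of M-values) in the ethanol libraries and at 16.1 and 15.2 CPM in the untreated libraries, a log2 change of -0.04 (adjusted p = 0.804). Nabp2 (the label's Ssb1; chr10:128401395-128411492) was read at 19.8 and 22.6 CPM with ethanol and 22.5 and 20.7 CPM without, a log2 change of -0.03 (adjusted p = 0.850). For both genes the ethanol and untreated libraries overlapped. In the Cre-positive libraries given 4-OHT the levels were 3.40 and 3.96 CPM for Nabp1 and 4.84 and 5.09 CPM for Nabp2.

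Total counts of the 4 libraries ranged from 20201855 to 30280311, and mitochondrial genes took 1.47% to 1.74% of the counts. Of 13 fibroblast markers tested, 4 were higher and none was lower with ethanol (2 higher without library 4, 7 or 8, 2 lower without library 4, and 1 lower with library totals), and their summed level was 8414 and 9227 CPM against 8684 and 8705 CPM. Vim alone took 3245 to 3496 CPM of that sum, and not every fibroblast marker was present. Thy1, which was not tested, was read at 0.0335 to 0.147 CPM and Dcn at 0.0737 to 0.197 CPM. Fap was called higher near the floor, at 0.405 and 0.168 CPM with ethanol against 0.0393 and 0 CPM without. Its call was lost without library 3, 7 or 8. The epithelial list summed to 2.98 to 3.87 CPM with Epcam at 0 in all 4 libraries, the haematopoietic list to 8.05 to 10.9 CPM with Adgre1 and Tyrobp at 0, the endothelial list to 0.747 to 0.972 CPM, and the skeletal muscle list to 5.00 to 7.54 CPM with Myf5 and Pax7 at 0. Higher levels were read for the neural list, which holds the progenitor genes Sox2 and Nes and summed to 152 to 188 CPM, and for the cartilage and bone list, which summed to 52.0 to 64.5 CPM. Of the latter, Runx2, a factor of bone-forming cells, took 44.6 to 54.2 CPM and Sox9, a factor of cartilage cells, 7.15 to 9.98 CPM, Matn1 and Ibsp were at 0, and none of the 4 members tested was called. In bulk RNA, fewer cells of a kind and less RNA per cell cannot be told apart. The Cre-negative cells used below for comparison are another cell line: Xist, the RNA that silences an X chromosome in female cells, was read at 502 to 727 CPM in their libraries and at 0.805 CPM or less in the Cre-positive libraries, and the Y-linked gene Uty was at 0 in every Cre-negative library and at 1.67 CPM or more in every Cre-positive library.

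Ethanol culture was accompanied by many small changes. Of 17609 genes tested, 1428 were higher with ethanol (8.11%) and 1204 were lower (6.84%) at an adjusted p under 0.05, and the median size of a called change was 0.26 on the log2 scale. Changes of at least 2-fold were rare: 49 genes were higher (0.278%) and 64 lower (0.363%) by that much. Tested against a minimum fold of 1.2, 100 genes were higher and 91 lower. Calls lost under that stricter test are not marked gene by gene below. The median over all genes was -0.01. The counts of each gene list are to be read against these shares of 8.11% higher and 6.84% lower over all genes. Scaling by library totals in place of TMM factors gave 1123 genes higher and 1627 lower, so 40.8% of the called genes were higher under that scaling against 54.3% with TMM, and the median of all genes then stood at -0.03. Single libraries moved the totals: without ethanol library 4 the counts were 855 higher and 568 lower, without untreated library 7 they were 864 and 561, and without untreated library 8 they were 834 and 687, while without ethanol library 3 they stayed at 1410 and 1080. The genes with a 2-fold change numbered 32 higher without library 7, and 30 lower without library 4 or 32 lower without library 8.

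**Figure D1:**
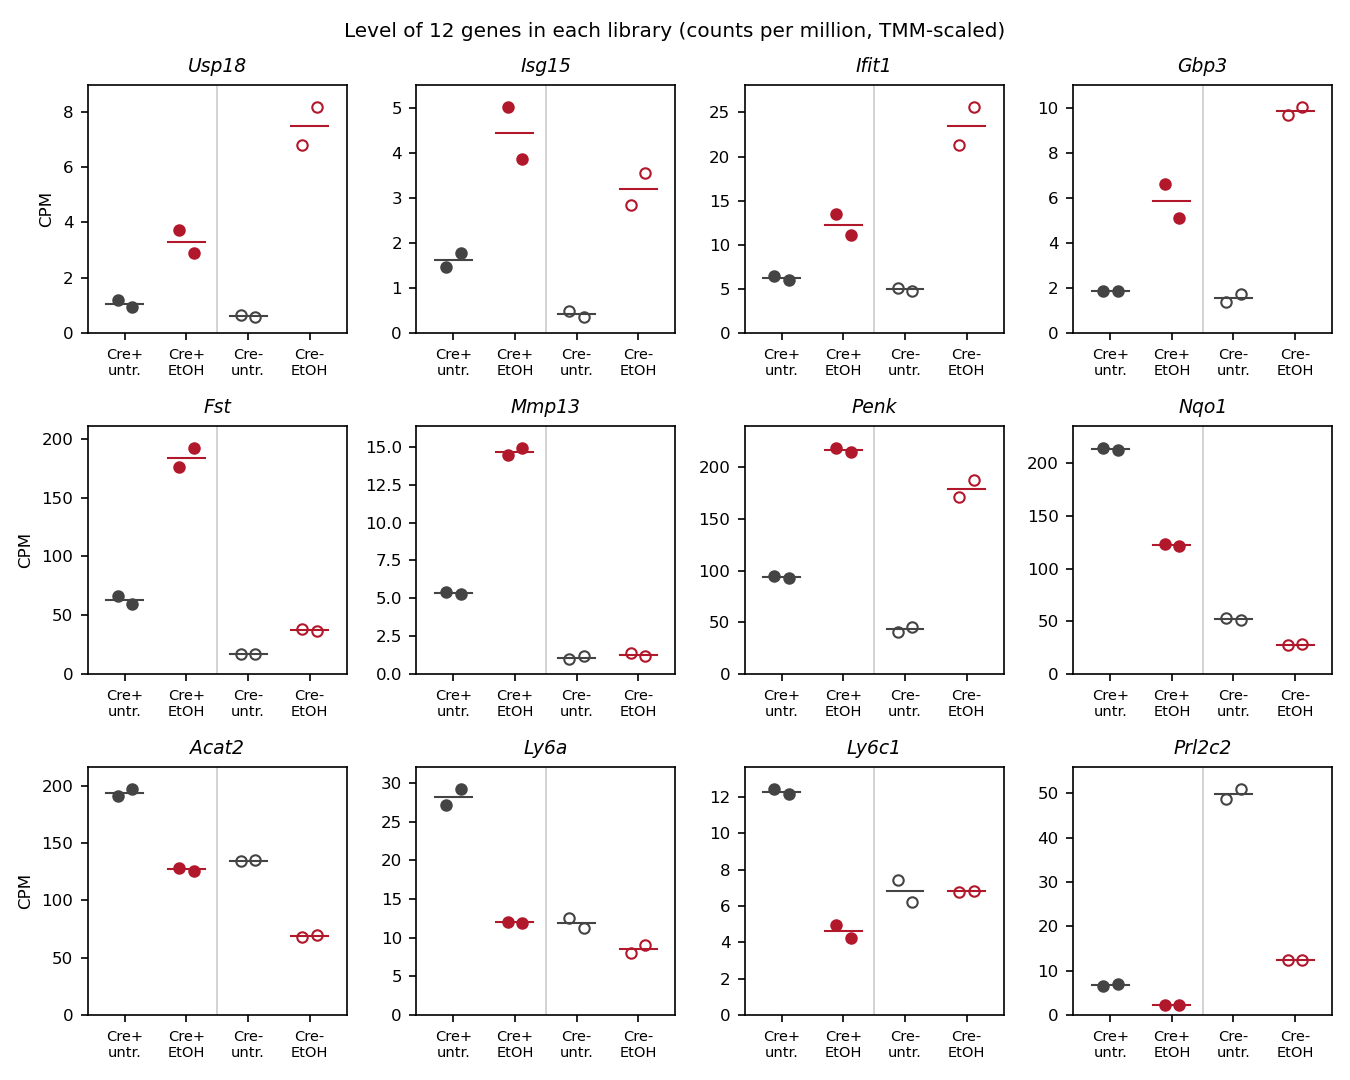
Levels in CPM of 12 genes by library, in the untreated and ethanol groups of the Cre-positive and the Cre-negative cells; horizontal lines are group means, circles single libraries, open circles Cre-negative and red ethanol. In Cre-positive cells the ethanol libraries of Usp18, Isg15, Ifit1, Gbp3, Fst, Mmp13 and Penk all lie above the untreated ones, and those of Nqo1, Acat2, Ly6a, Ly6c1 and Prl2c2 all lie below.

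Genes induced by interferon rose with ethanol. The reference promoters of Isg15, Ifit1 and Gbp3 are shown because their RNAs rose and each holds the core of the interferon-stimulated response element, written GAAANNGAAA and searched on both strands. Each sequence runs 5′ to 3′ on the strand of the gene from 250 bases before the RefSeq start site to 50 after it (GRCm38.p6), with matches in capitals. Where a gene had several start sites, the promoter with the most matches was taken. The Isg15 promoter (chr4:156200769-156201068, minus strand) holds 3 overlapping matches that start at -78, -72 and -66 from the start site. The Ifit1 promoter (chr19:34640639-34640938, plus strand) holds 2 matches on the opposite strand, whose first bases as printed lie at -104 and -85. The Gbp3 promoter (chr3:142559794-142560093, plus strand) holds 2 overlapping matches on the opposite strand, at -45 and -39.
Isg15: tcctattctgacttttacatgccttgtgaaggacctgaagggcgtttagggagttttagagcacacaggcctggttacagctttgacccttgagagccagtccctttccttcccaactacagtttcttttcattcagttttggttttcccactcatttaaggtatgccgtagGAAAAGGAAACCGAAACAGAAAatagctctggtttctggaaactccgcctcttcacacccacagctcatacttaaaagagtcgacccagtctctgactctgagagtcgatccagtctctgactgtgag
Ifit1: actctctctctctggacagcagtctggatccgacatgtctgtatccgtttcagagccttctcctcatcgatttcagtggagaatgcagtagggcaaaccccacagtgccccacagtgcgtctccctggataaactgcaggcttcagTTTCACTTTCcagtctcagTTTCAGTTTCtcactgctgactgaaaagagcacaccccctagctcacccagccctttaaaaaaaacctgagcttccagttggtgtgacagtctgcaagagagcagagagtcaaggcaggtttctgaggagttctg
Gbp3: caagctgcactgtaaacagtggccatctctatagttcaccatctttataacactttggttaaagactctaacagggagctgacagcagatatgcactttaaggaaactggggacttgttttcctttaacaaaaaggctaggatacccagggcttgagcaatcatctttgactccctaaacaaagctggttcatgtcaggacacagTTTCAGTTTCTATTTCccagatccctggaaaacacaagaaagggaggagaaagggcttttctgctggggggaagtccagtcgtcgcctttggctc
A gene was counted as holding the core if any of its promoters on hand held a match. That was so for 13 of the 21 list members that rose and had a promoter on hand (61.9%): Bst2, Ddx58, Ddx60, Gbp2, Gbp3, Gbp7, Ifi203, Ifih1, Ifit1, Ifit3, Ifit3b, Igtp and Isg15. Of members that did not pass the test, 7 of 20 with a promoter held it (35%). Of genes with a promoter, 373 of 10409 tested (3.58%) and 1079 of 27025 in all (3.99%) held it. A match describes these letters only and is not a binding site.

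Of 55 interferon-stimulated genes tested, 28 rose with ethanol and none fell, against 8.11% of all tested genes that rose. The median log2 change of the list was 0.51 against -0.01 for all genes. Cmpk2 had no count in the untreated libraries, and Rsad2 and Trim30a had 3 or fewer counts. With Cmpk2 set at its change from a floor of 3 counts and the latter genes left out, the median was 0.47. The called changes ran from 0.29 for Lgals3bp to 2.30 for Ddx60, and 12 members rose at least 2-fold. The call of Lgals3bp was lost without any of the 4 libraries in turn, those of Gbp7 and Ifi203 without library 3, 7 or 8, and that of Bst2 without library 3. Ifi203 was also not called with DESeq2. The list summed to 824 and 740 CPM in ethanol libraries 3 and 4 and to 650 CPM in each untreated library. Library 3 was above library 4 in 26 of the 28 members that rose, so the ethanol libraries differed among themselves along this list. Without ethanol library 3 or without untreated library 7, 19 members rose in each case, and without untreated library 8 it was 23.

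Usp18 (chr6:121245906-121270917), the protease that strips ISG15 from its targets and dampens the interferon receptor, was read at 3.72 and 2.88 CPM with ethanol against 1.18 and 0.934 CPM without. Its log2 change was 1.62 (SE 0.22, adjusted p = 3.36e-05). The predicted gene Gm44148 overlaps Usp18 on the opposite strand. Isg15 (chr4:156199424-156200818), the ubiquitin-like modifier, was read at 5.01 and 3.86 CPM against 1.46 and 1.77 CPM, a log2 change of 1.46 (SE 0.22, adjusted p = 0.000112). Gbp3 (chr3:142560026-142573209), a guanylate-binding GTPase, was read at 6.59 and 5.10 CPM against 1.85 and 1.87 CPM, a log2 change of 1.65 (SE 0.18, adjusted p = 2.35e-06). In these genes each ethanol library exceeded both untreated libraries, and library 3 was the higher of the ethanol libraries. Oasl2 (log2 change 1.85), Ifi44 (1.69), Mx2 (1.48), a dynamin-like antiviral GTPase, and Xaf1 (1.25) rose likewise, from untreated levels between 0.393 and 1.23 CPM. Phf11d rose by 1.26, a call that was lost without library 3, without library 7 or without library 8.

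The transcription factor genes Irf9 and Stat2 and the sensor genes Ifih1 and Ddx58 changed by smaller amounts than Usp18, Isg15 and Gbp3. Ifit1, which binds foreign RNA caps, was read at 13.4 and 11.1 CPM with ethanol against 6.49 and 6.00 CPM without, a log2 change of 0.96 (SE 0.12, adjusted p = 1.68e-05). Of the signalling complex, Irf9 rose from 22.4 CPM in each untreated library to 34.8 and 28.7 CPM, a log2 change of 0.50 (SE 0.076, adjusted p = 0.000115). Stat2, its partner, had a log2 change of 0.17 (adjusted p = 0.184). The RNA sensors Ifih1 (MDA5) and Ddx58 (RIG-I) rose by 0.84 and 0.30, and the RNA-editing enzyme Adar by 0.42. Irf7, the factor that amplifies interferon production, was read at 1.40 and 1.44 CPM against 1.34 and 0.983 CPM (adjusted p = 0.603). Ifit2, a relative of Ifit1, was read at 74.5 and 67.2 CPM with ethanol against 71.8 and 70.1 CPM without, a log2 change of 0.00 with overlapping groups.

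The ligands themselves were near the detection limit. Of 21 interferon genes in the table none passed the filter on low counts, and 6 had any count in the 4 libraries. Their summed counts were 10 and 7 in ethanol libraries 3 and 4 and 15 and 5 in untreated libraries 7 and 8, and Ifnb1 had 0 counts in all 4. Among 9 genes tested of the interferon receptors, their kinases, Socs1 and Socs3, none rose and 1 fell, against 8.11% and 6.84% of all genes. Tyk2, a kinase of the interferon receptor, fell by 0.28 on the log2 scale, a call that was lost without any of the 4 libraries in turn and with DESeq2. Of 16 nucleic acid sensors and their adaptors 1 rose and 2 fell, against the same shares. Mb21d1, which encodes the DNA sensor cGAS, rose from 10.5 and 10.0 CPM to 13.6 and 14.2 CPM (log2 change 0.43, adjusted p = 0.00154). Tmem173, which encodes its adaptor STING, fell from 24.4 and 24.6 CPM to 17.0 and 17.1 CPM (log2 change -0.52, adjusted p = 4.17e-05). The kinase gene Ikbke fell by 0.40, lost without library 4, 7 or 8 and with DESeq2. Of 16 MHC class I genes 1 rose and 1 fell, against the same shares. B2m, the shared light chain, rose from 336 and 328 CPM to 400 and 388 CPM (log2 change 0.25, adjusted p = 0.00014). H2-T23 fell by 0.65, a call lost without library 3, 4 or 8 and with DESeq2.

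**Figure D2:**
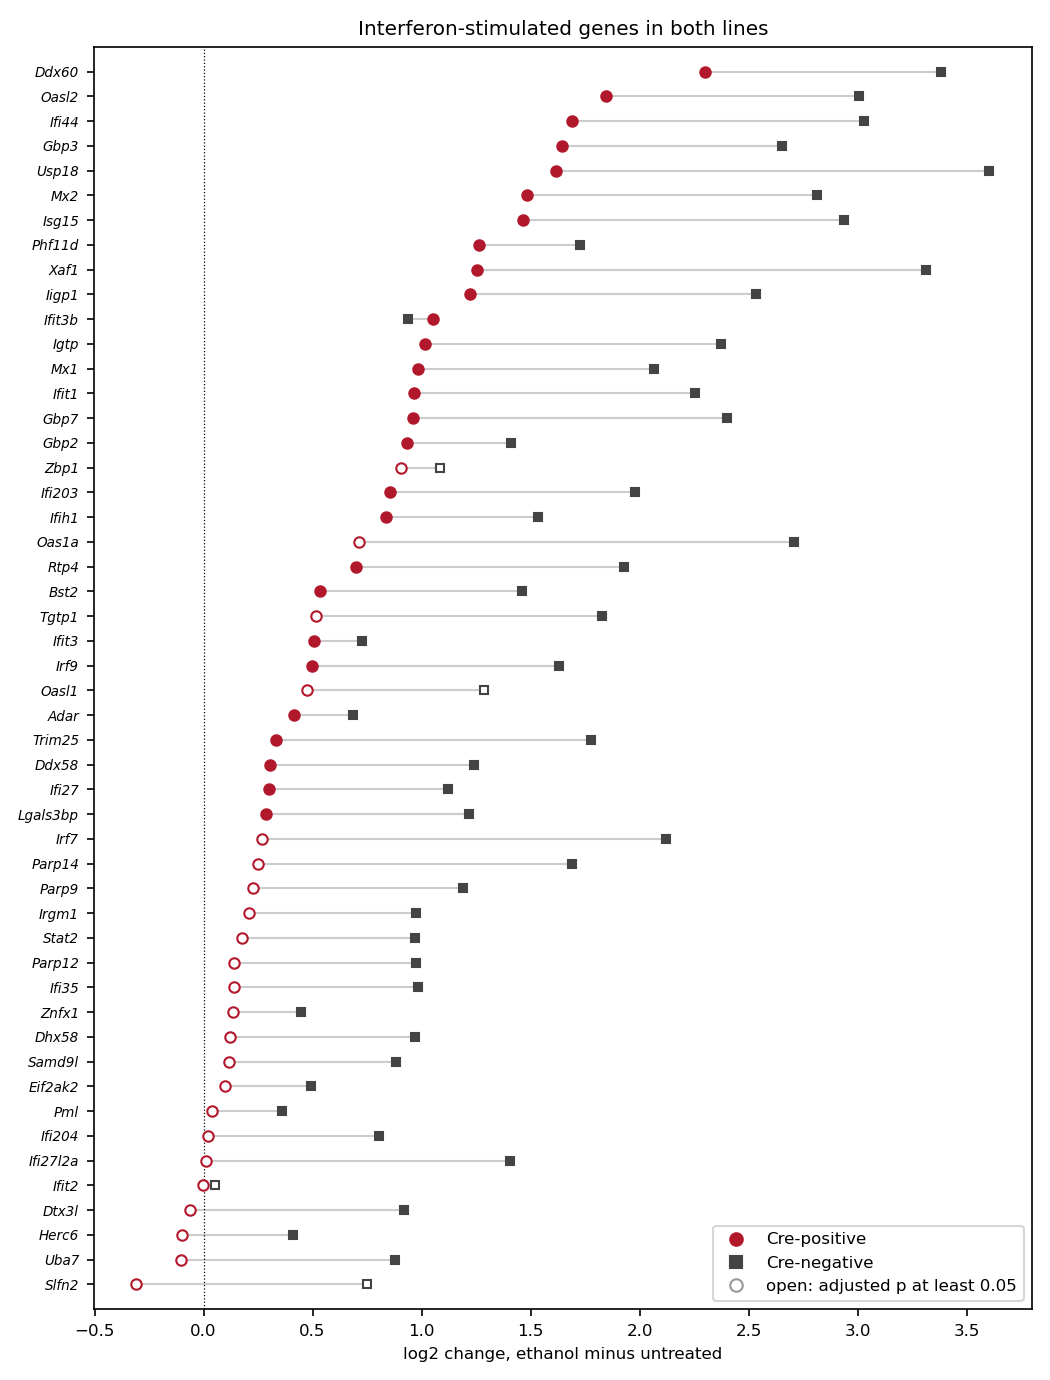
Log2 change with ethanol of 50 interferon-stimulated genes in Cre-positive cells (circles) and Cre-negative cells (squares); filled symbols have an adjusted p under 0.05 and open ones do not. Cmpk2, Oas2, Rsad2 and Trim30a, each with a group at 0 counts, and 1 member not reported here are not drawn. In most genes the square lies to the right of the circle: the list medians are 0.51 and 1.46.

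The rise of this list was smaller in the Cre-positive line than in the Cre-negative line. In Cre-negative cells 50 of the 55 members rose, with a median log2 change of 1.46, against 12.5% of all genes that rose in that line. Tested directly as the difference of the ethanol effects, 34 members differed, all with the smaller effect in Cre-positive cells, and 16.3% of all tested genes differed. Usp18 rose from a mean of 0.617 to 7.48 CPM in Cre-negative cells, and the difference of the effects was -1.99 (adjusted p = 0.00055). For Irf9 it was -1.13 (adjusted p = 3.0e-07) and for Ifit1 -1.29 (adjusted p = 3.5e-05). Gbp3 differed by -1.01 and Isg15 by -1.47. In the 4-OHT libraries of the Cre-positive cells, the levels of Usp18 were 9.65 and 10.4 CPM, above both the ethanol and the untreated libraries of that line.

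**Figure D3:**
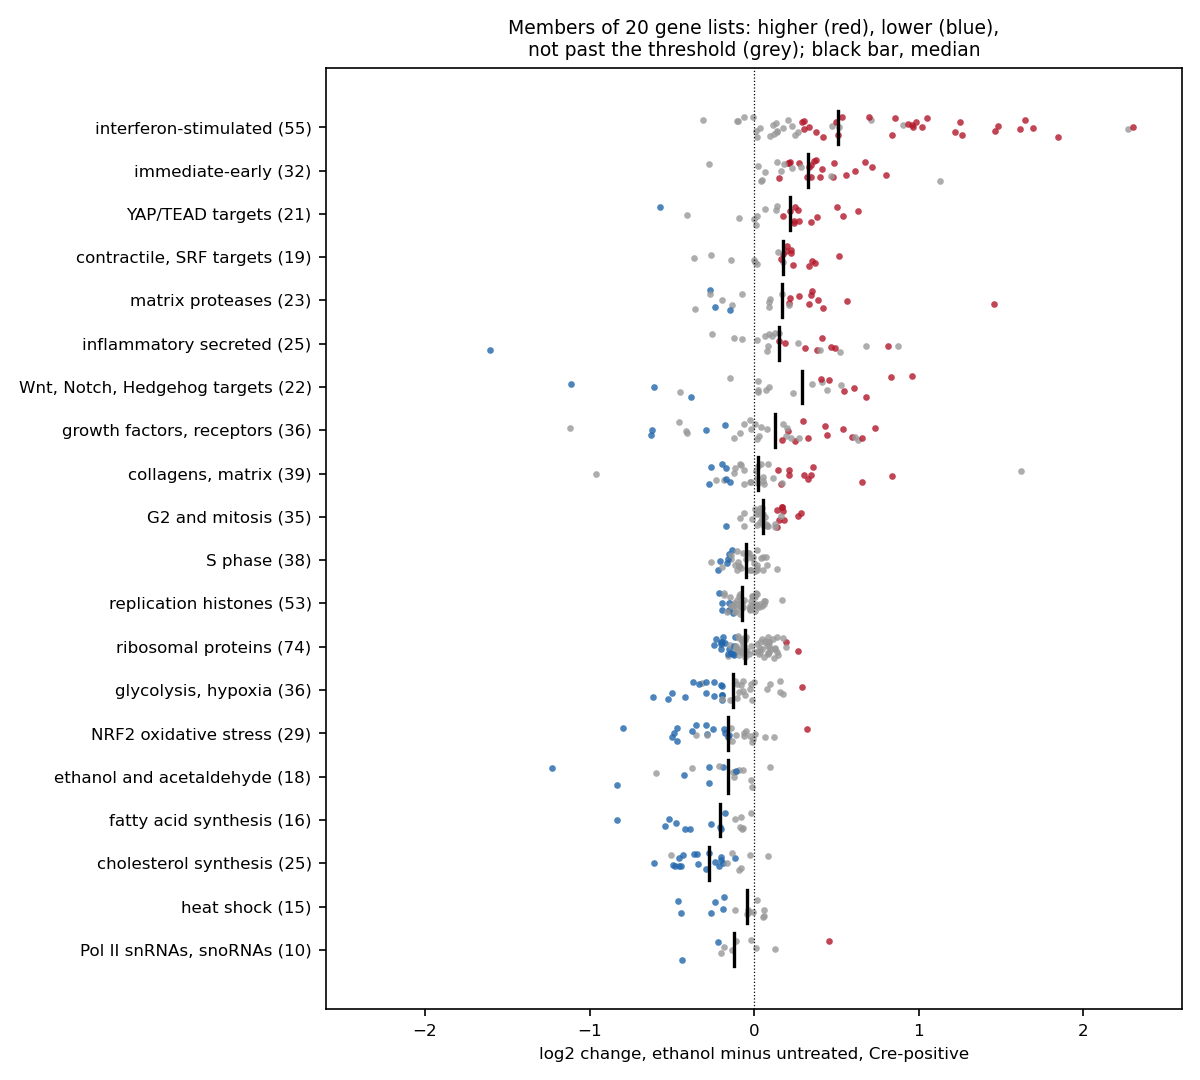
Log2 change with ethanol in Cre-positive cells of every tested member of 20 gene lists, 1 point per gene (red higher, blue lower, grey not past the threshold), with a black bar at the median of each list and its number of tested genes in brackets; 3 points with a group at 0 counts are not drawn. The interferon list has a median of 0.51 and the immediate-early list of 0.33, and the cholesterol list lies at -0.27 and the fatty acid list at -0.21.

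Many immediate-early genes were higher with ethanol. Of 32 tested, 20 rose and none fell, against 8.11% of all genes that rose, and the median log2 change was 0.33. The count rested on single libraries, since 10 rose without ethanol library 4 and 8 without untreated library 8, against 18 without library 3 or without library 7. Nr4a1 (chr15:101254269-101274795), an orphan nuclear receptor induced within minutes of stimulation, was read at 29.8 and 34.2 CPM with ethanol against 19.3 and 17.4 CPM without (log2 change 0.80, SE 0.085, adjusted p = 1.89e-06). Dusp5, a phosphatase of ERK, rose from 16.0 and 13.8 CPM to 23.2 and 25.9 CPM (log2 change 0.72, adjusted p = 5.24e-05). Egr1 was read at 32.5 and 42.5 CPM against 24.0 and 25.3 CPM, a log2 change of 0.61 whose call was lost without library 4 and with DESeq2. The ERK inhibitor Spry4 rose by 0.67, lost without library 4 or library 8. Fos, read at 10.2 and 10.1 CPM against 7.24 and 7.27 CPM, rose by 0.48, a call lost when any of the 4 libraries was left out and with DESeq2. Jun rose by 0.27, lost without library 8, and Myc had a log2 change of 0.07 (adjusted p = 0.528).

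Of 21 targets of YAP and TEAD, 12 rose and 1, Ankrd1, fell. Fewer rose without library 4, and the fall of Ankrd1 by 0.57 was lost without library 3, 4 or 7 and with DESeq2. Ctgf, a matricellular growth factor modulator, was read at 533 and 557 CPM with ethanol against 411 and 357 CPM without (log2 change 0.50, SE 0.069, adjusted p = 3.69e-05). F3, tissue factor, rose from 114 and 106 CPM to 157 and 164 CPM (log2 change 0.54), and Ajuba, a LIM scaffold protein, from 223 and 209 CPM to 283 and 280 CPM (log2 change 0.38). Of 19 contractile and SRF-regulated genes 11 rose and none fell, or 1 fell without library 4. Tagln (chr9:45929619-45936058), an actin-bundling protein of smooth muscle and myofibroblasts, was read at 1094 and 1070 CPM against 793 and 720 CPM (log2 change 0.52, SE 0.045, adjusted p = 1.1e-07). Its gene is overlapped on the opposite strand by the predicted gene Gm48529 and at its end by Pcsk7. Acta2, smooth muscle actin, rose from 2942 and 2852 CPM to 3653 and 3737 CPM (log2 change 0.35, SE 0.037), and Myl9, the regulatory myosin light chain, rose by 0.37. Acta1, skeletal actin, which is in the muscle marker list, rose from 4.01 and 3.88 CPM to 6.15 and 6.57 CPM. In Cre-negative cells 4 of the 19 contractile genes rose and 2 fell. The effects of the lines differed for 10 members, against 16.3% of all genes that differed, and the change was the higher in Cre-positive cells for 7 of them and the lower for 3, with a median difference of 0.10 over the list. The 3 largest called positive differences, named after their values were seen, were in Vcl, Tpm1 and Actb. Vcl, which encodes the adhesion protein vinculin, rose by 0.22 in Cre-positive and fell by 0.25 in Cre-negative cells, a difference of 0.47 (adjusted p = 1.9e-05). For the tropomyosin gene Tpm1 the difference was 0.43 (adjusted p = 6.3e-06) and for Actb, cytoplasmic actin, 0.29 (adjusted p = 0.00077). The 3 with the lower change were Tagln, Acta2 and Myl9: Tagln and Acta2 rose by 1.13 and 0.62 in Cre-negative cells, with differences of -0.61 (adjusted p = 2.0e-06) and -0.27 (adjusted p = 0.0013).

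Of 23 matrix proteases and their regulators 10 rose and 3 fell, with a median log2 change of 0.17, and none fell without library 4 or without library 8. Mmp13 (chr9:7272514-7283331), a collagenase, was read at 14.4 and 14.9 CPM with ethanol against 5.39 and 5.31 CPM without (log2 change 1.46, SE 0.098, adjusted p = 2.66e-09). Its libraries agreed closely within each group, and in Cre-negative cells its log2 change was 0.23 (adjusted p = 0.57), a difference of 1.23 (adjusted p = 0.0017). Plau, urokinase, rose from 45.2 and 41.8 CPM to 63.8 and 65.1 CPM (log2 change 0.56). The membrane collagenase Mmp14 rose by 0.33. Collagens and other matrix genes were divided, with 10 of 39 higher and 6 lower and a median of 0.02. Col8a1 rose from 130 and 122 CPM to 191 and 206 CPM (log2 change 0.65) and Thbs2, a matricellular thrombospondin, from 12.7 and 15.2 CPM to 24.2 and 25.3 CPM (log2 change 0.84). Col3a1, a fibrillar collagen, rose by 0.30 here and by 1.33 in Cre-negative cells, a difference of -1.02 (adjusted p = 3.0e-09). For the collagens 6 members rose without library 7, against 13 without library 3, and 3 fell without library 8. Of 19 targets of TGF-beta and BMP, 7 rose and 1 fell, with 4 higher without library 8 and none lower without library 3, 4 or 8. Id2, an inhibitor of helix-loop-helix factors, rose from 70.8 and 63.0 CPM to 94.2 and 96.6 CPM.

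Among secreted signals, Fst (chr13:114452290-114458951), which encodes follistatin, an antagonist of activins, was read at 176 and 192 CPM with ethanol against 66.3 and 59.8 CPM without. Its log2 change of 1.54 (SE 0.051, adjusted p = 2.9e-14) ranged from 1.48 to 1.62 over all alternatives run, and the predicted gene Gm47040 overlaps it on the opposite strand. Penk, the precursor of enkephalin peptides, was read at 219 and 215 CPM against 94.8 and 92.8 CPM (log2 change 1.21, SE 0.049, adjusted p = 7.73e-13). For both genes the gap between the groups was several times the spread within them. In Cre-negative cells Fst rose by 1.12 and Penk by 2.05, differences of 0.43 (adjusted p = 0.0021) and -0.84 (adjusted p = 9.9e-08).

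Of 36 growth factors and receptors tested, 11 rose and 4 fell, with 7 higher without library 7 and 2 lower without library 4. Of 3 ligands of the EGF receptor in the list, Hbegf and Ereg rose, and Areg, amphiregulin, was read at 0.516 and 0.771 CPM against 0.275 and 0.590 CPM (adjusted p = 0.429). Hbegf was read at 201 and 210 CPM with ethanol against 131 and 115 CPM without (log2 change 0.74, SE 0.061, adjusted p = 5.48e-08), and Ereg, epiregulin, at 595 and 665 CPM against 431 and 403 CPM (log2 change 0.60). In Cre-negative cells the log2 changes were -0.01 for Hbegf and -0.28 for Ereg, and the differences were 0.74 (adjusted p = 1.1e-05) and 0.87 (adjusted p = 4.4e-07). Angpt1, the ligand of the endothelial receptor TIE2, rose by 0.65, and the neurotrophin Bdnf by 0.44. Figf, which encodes VEGF-D, fell from 15.9 and 16.8 CPM to 10.8 and 10.4 CPM (log2 change -0.62). Gjb2, the gap junction protein connexin 26, rose from 27.4 and 24.3 CPM to 51.9 and 64.1 CPM (log2 change 1.16, SE 0.080). Among 25 inflammatory and secretory genes 8 rose and 1 fell, and 5 rose without library 8. The chemokine gene Ccl20 rose by 0.81 and the NF-kappaB subunit gene Relb by 0.49, the macrophage growth factor Csf1 by 0.38, and the chemokine gene Ccl9 fell from 1.61 and 1.38 CPM to 0.589 and 0.402 CPM.

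Wnt, Notch and Hedgehog genes were tested as a list of 22, of which 7 rose and 3 fell, against 8.11% and 6.84% of all genes. The lower count rested on single libraries: none fell without library 3, without library 8 or with DESeq2, and 1 fell without library 7. Dkk2, a Wnt antagonist, was read at 42.5 and 37.9 CPM with ethanol against 22.6 and 22.5 CPM without (log2 change 0.83, SE 0.075, adjusted p = 1.96e-07). The Notch target Hes1 rose from 14.3 and 12.9 CPM to 21.9 and 21.8 CPM (log2 change 0.68), and the Notch targets Hey2 and Hey1 rose by 0.96 and 0.55. The Notch ligand Jag1 rose by 0.45, and the receptor Notch1 rose by 0.41, lost without library 4 or 7. Sfrp2, a secreted Wnt modulator, rose by 0.61 here and by 1.73 in Cre-negative cells (difference adjusted p = 2.5e-08). The Hedgehog target Gli1 fell from a mean of 1.19 CPM to 0.516 and 0.570 CPM, a call lost without any of the 4 libraries in turn. The Wnt target Lgr5 fell by 0.61, lost without library 3, 7 or 8 and with DESeq2. Among the neural markers, Sox2 rose from 30.4 and 30.1 CPM to 40.8 and 41.6 CPM and Nes, nestin, by 0.26.

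Lipid synthesis genes were lower with ethanol. Of 25 genes of cholesterol synthesis and uptake, 18 fell and none rose, with a median log2 change of -0.27, against 6.84% of all tested genes that fell; between 15 and 18 fell when any library was left out. Acat2 (chr17:12942890-12960747), the acetyl-CoA thiolase at the entry of the pathway, was read at 128 and 126 CPM with ethanol against 191 and 197 CPM without (log2 change -0.61, SE 0.039, adjusted p = 1.07e-09). The mevalonate enzymes Mvk and Mvd fell by 0.49 and 0.48, and the cyclase Lss by 0.34. Insig1, whose product retains the SREBP escort protein in the endoplasmic reticulum, was read at 316 and 300 CPM against 328 and 322 CPM (log2 change -0.08, adjusted p = 0.258). In Cre-negative cells 23 of the 25 fell, with a median of -0.86, and Insig1 fell by 0.95. The difference of the effects was called for 22 members, in every case with the less negative change in Cre-positive cells, and for Insig1 it was 0.87 (adjusted p = 1.2e-08).

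Of 16 fatty acid genes 10 fell and none rose, with a median of -0.21. Acss2 (chr2:155517948-155585724), which makes acetyl-CoA from acetate, was read at 12.3 and 12.0 CPM with ethanol against 21.4 and 22.1 CPM without (log2 change -0.83, SE 0.088, adjusted p = 1.81e-06). In Cre-negative cells its log2 change was -0.24 (adjusted p = 0.11), and the effects differed by -0.60 (adjusted p = 0.0052), so for Acss2 the larger fall was in the Cre-positive line, unlike the sterol genes. Scd2 (chr19:44293674-44306864), a fatty acid desaturase, fell from 1187 and 1165 CPM to 763 and 850 CPM (log2 change -0.54, SE 0.049). Its relative Scd1 fell by 0.48, the desaturase Fads2 by 0.42, the phosphatidate phosphatase Lpin1 by 0.52 and the citrate lyase Acly by 0.26. Fasn, the fatty acid synthase, was read at 438 and 502 CPM against 509 and 486 CPM (adjusted p = 0.307).

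**Figure D4:**
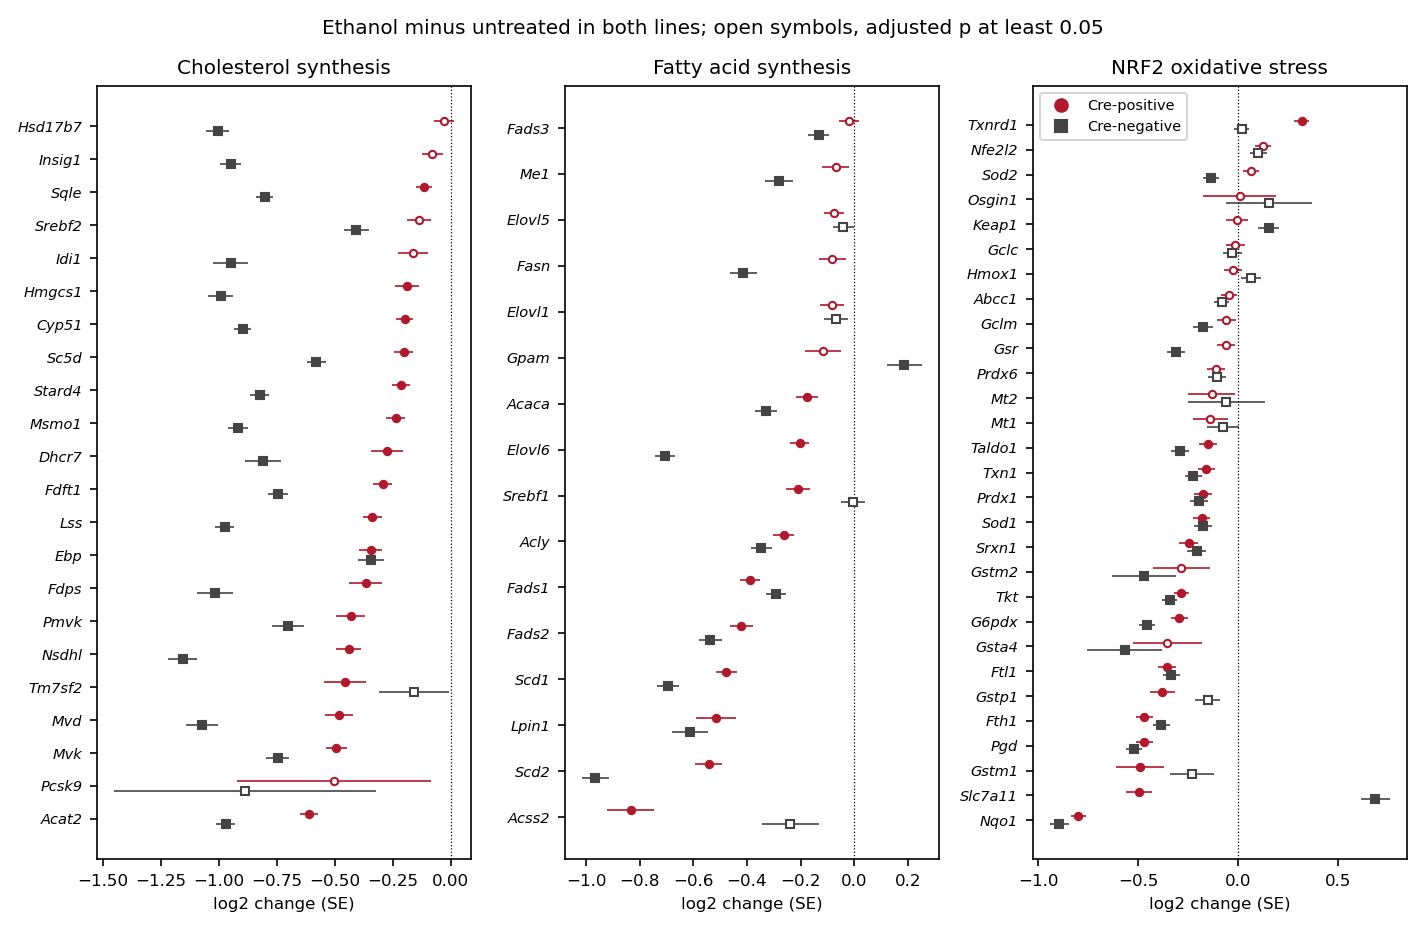
Log2 change with ethanol of the tested members of 3 metabolic gene lists, without the members not reported here, in Cre-positive cells (circles) and Cre-negative cells (squares), with bars of 1 standard error; open symbols have an adjusted p of at least 0.05. Over the whole lists in Cre-positive cells, of 25 cholesterol genes 18 fell, of 16 fatty acid genes 10 fell, and of 29 NRF2 genes 14 fell and 1, Txnrd1, rose.

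Of 29 NRF2 and antioxidant genes 14 fell and 1 rose, with a median of -0.16; between 10 and 13 fell when a library was left out. Nqo1 (chr8:107388225-107403206), a quinone reductase, was read at 124 and 121 CPM with ethanol against 214 and 212 CPM without (log2 change -0.80, SE 0.037, adjusted p = 8.83e-12). In Cre-negative cells it fell by 0.89, and the effects differed by 0.10 (adjusted p = 0.33). The ferritin chains Fth1 and Ftl1 fell by 0.47 and 0.36. The pentose phosphate enzymes Pgd, G6pdx and Tkt, which supply NADPH and pentoses, fell by 0.47, 0.29 and 0.28. Slc7a11, the cystine transporter, fell from a mean of 39.7 ± 0.49 CPM (SD, n = 2) to 28.1 ± 0.69 CPM (log2 change -0.50), whereas in Cre-negative cells it rose by 0.69, a difference of -1.18 (adjusted p = 5.3e-08). Txnrd1, thioredoxin reductase, went the other way and rose from 355 and 356 CPM to 430 and 456 CPM (log2 change 0.32, adjusted p = 6.28e-06). Nfe2l2, which encodes NRF2, had a log2 change of 0.12 (adjusted p = 0.0505), Hmox1, heme oxygenase, of -0.03 and Gclc, of glutathione synthesis, of -0.01. The core of the antioxidant response element, TGACNNNGC on either strand, was in any promoter of 5 of the 14 members that fell (35.7%). Among genes with a promoter on hand, 3 of 8 members not called (37.5%) and 1758 of 10409 tested genes (16.9%) held it.

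A list of alcohol and aldehyde dehydrogenases and related enzymes held 18 tested genes, of which 7 fell and none rose, against 6.84% of all genes that fell, with a median of -0.16. The 7 were Adh7, Aldh2, Aldh3a1, Aldh9a1, Cat, Acss2 and Akr1a1. Acss2, described above, acts on acetate, and Akr1a1, an aldehyde reductase, fell by 0.11, a call lost without library 4, 7 or 8. These 2 do not oxidise ethanol or acetaldehyde, and whether the others do so in these cells was not tested. The count depended on scaling and libraries: 11 fell with library totals and 4 without library 7. Aldh3a1, an aldehyde dehydrogenase, was read at 2.36 and 2.35 CPM with ethanol against 5.07 and 6.05 CPM without (log2 change -1.23, SE 0.16, adjusted p = 1.66e-05). Aldh9a1 fell from 23.6 and 23.1 CPM to 17.0 and 17.7 CPM (log2 change -0.43). Aldh2, the mitochondrial enzyme that clears most acetaldehyde, was read at 80.1 and 82.0 CPM against 103 and 92.7 CPM, a fall of 0.27 that was lost without library 7. Catalase, Cat, fell by 0.27, also lost without library 7. Adh7 fell by 0.19, lost without library 4 or 8, and Adh5, the broadly expressed alcohol dehydrogenase, was read at 128 and 124 CPM against 127 CPM in each untreated library (adjusted p = 0.840). Of the 9 list members whose effects differed between the lines, all had the more negative change in Cre-positive cells. Of 8 genes of the aryl hydrocarbon receptor and its targets, 2 fell and 1 rose. Those that fell were Aldh3a1 and Nqo1, with the log2 changes of -1.23 and -0.80 given above, and Nqo1 is in the NRF2 list too. Tiparp, a poly-ADP-ribosyltransferase that represses the receptor, rose by 0.28, and Cyp1b1, a further target, had a log2 change of -0.03 (adjusted p = 0.690).

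Of 36 genes of glycolysis and the hypoxia response 15 fell and 1 rose, with a median of -0.13. Ddit4, an inhibitor of mTORC1, fell from a mean of 25.3 ± 0.41 CPM (SD, n = 2) to 16.5 ± 0.64 CPM (log2 change -0.61, SE 0.072), and in Cre-negative cells its log2 change was -0.01 (difference adjusted p = 0.00027). Bnip3, of mitophagy, fell by 0.50 and Pdk1, which restrains pyruvate oxidation, by 0.42. The glycolytic enzymes Pkm, read at 2251 and 2065 CPM against 2768 and 2669 CPM, and Aldoa fell by 0.33 and 0.29, and Ldha fell by 0.19, lost without library 4. Hk2, hexokinase, rose by 0.29, lost without library 4 or library 8, and Vegfa had a log2 change of 0.08 (adjusted p = 0.367).

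Most cell cycle genes did not pass the test. Of 38 S-phase genes 6 fell and none rose, against 6.84% of all genes that fell and 8.11% that rose, among them the helicase subunit Mcm5 (log2 change -0.21) and the clamp loader Rfc2 (-0.22); 11 fell with library totals, 2 without library 4 and 3 without library 7. Of 35 genes of G2 and mitosis 9 rose and 1 fell, against the same shares. Among those that rose were Kif23 (0.29), Ube2c (0.26) and Cdk1 (0.18), and the 1 fall was lost without any of the 4 libraries in turn. The inhibitor genes Cdkn2b and Cdkn2a fell by 0.38 and 0.21, the latter lost without library 4. Of 53 replication-dependent histone genes 6 fell and none rose, against 6.84% of all genes that fell, with a median of -0.08, and 1 fell when any library was left out, 10 with library totals and none with DESeq2. In Cre-negative cells 49 of the 53 rose, against 12.5% of all genes, with a median of 0.39, and the difference was called for 48, against 16.3% of all genes. Histone genes are near-identical copies whose reads the counting could divide among them, so single members are uncertain. Of 28 p53 targets 5 rose and 5 fell, against 8.11% and 6.84% of all genes, with 2 higher and 1 lower without library 4, 3 higher and 1 lower without library 7, and 2 of each without library 8, and 16 were higher and 3 lower in Cre-negative cells, against 12.5% and 12.0% of all genes.

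Stress programmes were read in the same way. Of 15 heat shock genes 6 fell and none rose, Hspa1b from 16.6 and 15.8 CPM to 12.4 and 11.5 CPM (log2 change -0.44) and Hsph1 by 0.26. In Cre-negative cells these fell by 0.92 and 0.75, and the differences were 0.48 for each. Of 36 genes of the integrated stress and unfolded protein responses 2 rose, a share below the 8.11% of all genes, and 7 fell, against 6.84% of all genes, with 4 lower without library 4, 3 lower without library 7 1 higher without library 4 and none higher without library 8. Herpud1, of endoplasmic reticulum degradation, fell by 0.31, whereas in Cre-negative cells it rose by 0.31 (difference adjusted p = 1.7e-06). Ddit3, which encodes CHOP, and the pseudokinase Trib3 had log2 changes of 0.14 (adjusted p = 0.242) and -0.21 (adjusted p = 0.141), and in Cre-negative cells they rose by 0.95 and 1.02.

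Outside these lists the largest falls included surface and secreted proteins. Prl2c2 (chr13:12996125-13005383), a proliferin of the prolactin family, was read at 2.25 and 2.21 CPM with ethanol against 6.57 and 7.03 CPM without (log2 change -1.60, SE 0.13, adjusted p = 4.45e-08). The family has near-identical copies, so the level of a single member is uncertain. In Cre-negative cells it fell from a mean of 49.8 to 12.4 CPM, by 2.01 on the log2 scale, and the effects differed by 0.40 (adjusted p = 0.086). Ly6c1 (chr15:75044018-75048830) and Ly6a (chr15:74994877-74998031), neighbouring genes for GPI-anchored surface proteins, fell together. Ly6c1 was read at 4.94 and 4.26 CPM against 12.4 and 12.1 CPM (log2 change -1.42, SE 0.11, adjusted p = 4.23e-08), and Ly6a at 12.1 and 11.9 CPM against 27.2 and 29.2 CPM (log2 change -1.23, SE 0.091, adjusted p = 1.19e-08). In Cre-negative cells Ly6c1 had a log2 change of 0.00 and Ly6a fell by 0.47, with differences of -1.43 (adjusted p = 5.4e-06) and -0.76 (adjusted p = 0.00083).

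The other genes with large falls were at low levels, below 7 CPM in every library of the comparison. The metalloprotease gene Adamts8 fell by 1.24, the cardiac troponin gene Tnnt2 by 1.26, Pcyt1b, an enzyme of phosphatidylcholine synthesis, by 1.18, the potassium channel genes Kcnj15 and Kcnh2 by 1.14 and 1.03, and Sec16b, of endoplasmic reticulum exit sites, by 1.01. Single libraries decided other calls: Chil1 (-1.39) and Pou6f1 (-1.24) were lost without library 7, Raet1e (-1.34) without library 3, 4 or 7, Oit3 (-1.04) without library 4 or 8, and Tnxb (-1.01) without library 4 or 7. Among the genes that rose, the adhesion protein gene Lrrtm3 was read at 1.77 and 2.55 CPM against 0.708 and 0.639 CPM (log2 change 1.68) and the dynein gene Dnah5 at 3.43 and 4.22 CPM against 1.30 and 1.92 CPM (log2 change 1.28). Oprk1, an opioid receptor gene, rose by 2.19 from 0.0787 and 0.197 CPM, a call lost without library 4 or 7. The minimum average level for naming a gene was taken over all libraries of the series, not over those compared.

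Gabrb2 and Gdf6 passed the test from 0 counts in both untreated libraries, with 6 counts in library 3 and 3 in library 4 for each gene. Set against a floor of 3 counts over the untreated group, the 9 pooled ethanol counts of each gene gave a ratio of 2.37. That ratio takes the 9 counts as exact and leaves out their counting error, so it is not a lower bound. The call of Gabrb2 was lost without any of the 4 libraries in turn and that of Gdf6 without library 3, 7 or 8. Both genes are expressed in the Cre-negative line, and the filter on low counts was run over all 12 libraries. In the untreated and ethanol Cre-negative libraries the counts were 114 to 321 for Gabrb2 and 545 to 1986 for Gdf6. The ethanol level in Cre-positive cells was 1.44% of the Cre-negative ethanol level for Gabrb2 and 0.236% for Gdf6. For 7 genes above 20 CPM in the Cre-negative cells and under 0.2 CPM in untreated Cre-positive cells, the summed counts were 22 in each ethanol library and 7 and 12 in the untreated libraries, against 8427 and 9034 in the Cre-negative ethanol libraries. The part of reads from another library in these counts was not tested.

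Small nuclear RNAs were read with the vehicle alone, and the 4-OHT levels of the same line are given beside those of the U1, U2 and U5 genes. Of 10 RNA polymerase II products 1 rose and 2 fell. Rnu12, the U12 RNA of the minor spliceosome (chr15:83149644-83149794), was read at 38.1 and 37.9 CPM with ethanol against 24.9 and 30.9 CPM without (log2 change 0.46, SE 0.077, adjusted p = 0.000347), and its effect differed from that in Cre-negative cells by 0.64. Terc, the telomerase RNA, fell by 0.44, lost without library 4 or 7. The U3 RNA gene Rnu3a fell by 0.22, lost without library 3, 4 or 8 and with DESeq2. The U1 gene Rnu1a1 was read at 2.84 and 3.05 CPM with ethanol and 3.30 and 3.39 CPM without (adjusted p = 0.536), and at 27.0 and 29.9 CPM in the 4-OHT libraries. The U2 gene Rnu2-10 was read at 5.08 and 4.36 CPM with ethanol, 5.35 and 5.50 CPM without (adjusted p = 0.370) and 46.5 and 44.7 CPM with 4-OHT. The U5 gene Rnu5g was read at 6.48 and 4.93 CPM with ethanol, 5.07 and 5.36 CPM without (adjusted p = 0.603) and 33.0 and 34.8 CPM with 4-OHT. These genes have near-identical copies. Of 8 RNA polymerase III products, Rny3, a Y RNA, rose by 0.44, lost without library 7, and Rpph1, the RNA of RNase P, rose by 0.11, lost without library 3, 7 or 8 and with library totals. Of 17 subunits of Integrator and the SOSS complex, 1, Ints7, fell, by 0.15, and none rose, against 6.84% and 8.11% of all genes. The Ints7 call was lost without library 3, 7 or 8 and with DESeq2. More members fell without library 4, and 4 fell with library totals.

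Across all genes the ethanol effects of the Cre-positive and Cre-negative lines overlapped in part. In the Cre-negative line 2196 genes rose (12.5%) and 2117 fell (12.0%). The genes that rose in both lines numbered 451, which is 31.6% of those that rose in the Cre-positive line and 20.5% of those that rose in the Cre-negative line. Those that fell in both numbered 413, or 34.3% and 19.5%. A further 153 genes rose in Cre-positive and fell in Cre-negative cells, and 110 did the reverse. The log2 changes of the lines had a Pearson correlation of 0.14 and a Spearman correlation of 0.11 across 17609 genes, which are not independent replicates. The difference of the effects passed the test for 2871 genes (16.3%), with the higher value in the Cre-positive line for 1465 and in the Cre-negative line for 1406. Among the largest were Dkk2 and the hypoxia-related factor Epas1, whose effects were higher in Cre-positive cells by 1.32 and 1.5, and the interferon-inducible GTPase gene Irgm2, whose effect was lower by 2.54. Within the Cre-positive line, the rise of Epas1 was lost without library 4, 7 or 8 and with DESeq2, and that of Irgm2 without library 4 or 7. The lines differ in sex-linked genes as well as in Cre genotype, so line and genotype cannot be told apart.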

How the data were processed

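The deposited table gives expected counts per gene symbol for 12 libraries, held as whole numbers, which the authors made from reads with cutadapt 1.11, STAR 2.5.2a, RSEM 1.2.30 and GRCm38, per the submitters' processing notes, where edgeR is named too. Per the labels' protocols, ribosomal RNA was depleted and the libraries were stranded total RNA. Neither annotation nor strand setting of the counting is given in the labels used here, so reads of overlapping genes on opposite strands cannot be told apart.

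Of 47517 symbols, 17609 passed edgeR's filterByExpr. Counts were scaled by TMM and tested with edgeR 4.0.16 (R 4.3.3) by the 2-sided quasi-likelihood F test, with all 12 libraries and 1 mean per group. P-values were adjusted by Benjamini-Hochberg over all tested genes, with a threshold of 0.05. The standard error is the size of the log2 change divided by the square root of F. The coefficient of variation between libraries of a group beyond counting error was 3.44%, with 6 residual degrees of freedom. The estimate of spread was also shared across genes, with 14.6 prior degrees of freedom. Depth of 20201855 to 30280311 counts limits genes under about 1 CPM. Levels are CPM with TMM. The difference between the lines was tested in the same model.

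Named genes were Nabp1 and Nabp2, up to 15 per direction with the largest change (average log2 CPM of at least 1, groups not overlapping, predicted genes and pseudogenes left out), up to 4 per gene list, up to 5 per direction for the difference from Cre-negative cells, and small nuclear RNAs. The average log2 CPM was taken over all 12 libraries. Penk, and list members named beyond these for their known role, were chosen after their values were seen. Members and lists were chosen with earlier results of these data known. Coordinates are from GENCODE M21, to which 16875 of the 17609 symbols matched; promoters are from RefSeq. The model was tested on simulated data. Alternatives were DESeq2 1.42.0, other scalings, filters, sets of libraries, a minimum fold of 1.2 (glmTreat) and leaving out each library. Some list members are counted in their lists but not reported here by name.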

Additional observations from a re-analysis of the deposited data

Results flagged for a closer look

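The ethanol effect of the Cre-positive line differed from that of the Cre-negative line, by a test of the difference itself, for 2871 genes. That is 16.3% of all genes tested. Of the 175 genes reported here under the rule for gene choice, 79 were among them. The difference (log2 change in Cre-positive minus log2 change in Cre-negative cells) was positive for 34 and negative for 45, and 16 were called in opposite directions in the lines. The rule took up to 5 genes per direction because they passed this same test, so the 79 do not measure how often effects differed. Genes named beyond the rule are not counted, and the values by gene below are of these 79. The cause of these differences was not tested, and line and Cre genotype cannot be told apart.

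Among interferon and antigen presentation genes the difference was -1.99 for Usp18, -1.47 for Isg15, -1.01 for Gbp3, -1.33 for Mx2, -2.06 for Xaf1, -2.54 for Irgm2, -0.35 for B2m, -0.85 for H2-T23 and -0.41 for Tyk2. All of these were more negative in Cre-positive cells.

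Among lipid and metabolic genes the difference was 0.36 for Acat2, 0.59 for Mvd, 0.25 for Mvk, 0.22 for Scd1 and 0.42 for Scd2, where the fall was smaller in Cre-positive cells. It was -0.60 for Acss2, -0.45 for Aldh9a1, -0.60 for Ddit4, -0.50 for Pdk1 and -1.18 for Slc7a11, where the Cre-positive change was the more negative.

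Of 19 contractile genes the difference was called for 10, 7 with a positive and 3 with a negative value, and those named by the rule for gene choice were among the 3. Among contractile, matrix, junction and growth factor genes the difference was -0.27 for Acta2, -0.29 for Myl9, -0.61 for Tagln, -1.02 for Col3a1, -0.56 for Tnc and -0.44 for Angpt1. It was positive in others, at 0.91 for Col8a1, 0.63 for Lamc1, 1.23 for Mmp13, 0.45 for Plaur, 0.29 for F3, 0.43 for Fst, 0.74 for Hbegf, 0.74 for Gjb2 and 0.92 for Cgn.

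Among immediate-early genes and genes of signalling and cell identity it was -0.34 for Btg2, 0.57 for Dusp5, 0.74 for Egr1, 0.62 for Id2, 0.46 for Hes1, 1.12 for Hey2, 1.32 for Dkk2, -2.51 for Lgr5, 0.38 for Sox2, 0.22 for Nes and 0.58 for Twist2.

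Among cell cycle, histone, ribosomal and stress genes it was 0.29 for Ccnd2, -0.41 for Ccng2, -0.21 for Mcm5, -0.38 for Pold1, -0.32 for Rfc2, -0.28 for Tk1, -0.38 for Hist1h1d, -0.55 for Hist1h2ac, -0.34 for Hist1h3g, -0.51 for Hist1h4i, -0.21 for Rplp0 and -0.16 for Rps4x. It was -0.62 for Herpud1, 0.48 for Hspa1b, 0.77 for Hspa4l and 0.48 for Hsph1.

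Among small RNAs it was 0.64 for Rnu12, 0.51 for Rny1 and 0.16 for Rpph1.

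Among the remaining named genes it was 1.5 for Epas1, 1.30 for Hmgn5, 1.53 for Lrrtm3 and 2.00 for Oprk1, and -2.01 for Adamts8, -1.29 for Chil1, -2.38 for Gatsl3, -1.37 for Kcnh2, -0.76 for Ly6a, -1.43 for Ly6c1, -1.05 for Oit3, -3.30 for Pcp4l1, -2.12 for Pou6f1, -0.68 for Sec16b and -3.42 for Slc1a6. Of these, Slc1a6 and Pcp4l1 were under 0.5 CPM in the 4 Cre-positive libraries compared, and Oprk1 was under 0.5 CPM in the untreated ones.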

How the results depend on the processing

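Counts over all genes stayed within 1.5 times the value reported in 45 of 61 alternative values and moved further in 16; no named gene reversed. DESeq2 called 678 genes lower, and 24 higher and 15 lower by at least 2-fold; 677 of its lower and 1141 of its higher genes were called in the same direction by edgeR, and its adjusted p was not given for 5121 genes. With at least 50 counts in 2 libraries, 29 genes fell at least 2-fold. Against a minimum of 1.2-fold (glmTreat, which gives no separate 2-fold counts), 100 genes were higher, 91 lower and 472 differed between the lines. Among the named genes not called against that minimum were Acta2, Myl9, B2m, Col3a1, Sox2 and Rnu12. Leaving out 1 library, with the lone sample of its group assumed to vary like the other groups, gave 834 to 1410 genes higher, 561 to 1080 lower, 32 to 48 higher and 30 to 48 lower by at least 2-fold, and 1931 to 3077 differing between the lines. The 2-fold counts were lowest without untreated library 7 (32 higher) and without ethanol library 4 (30 lower). The causes of these shifts were not tested. Of the values for named genes, 1994 kept their status, called or not called, 289 lost a call and 3 gained one. The 1994 include genes called in neither the main test nor the alternative. Of the list counts, 958 stayed within 1.5 times and 212 did not. The difference between the lines was not run with only the 4 or 6 Cre-positive libraries, which lack the other line. No paired analysis was possible because the groups compared share no replicate numbers in the labels. Depth limits genes at a few counts, such as Gabrb2, Gdf6 and the interferon genes.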

Other observations

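Of 74 ribosomal protein genes tested in Cre-positive cells, 15 fell with ethanol, against 6.84% of all genes, 2 rose, a share below the 8.11% of all genes, and 57 did not pass the test. The median log2 change was -0.05. Rps4x, of the small subunit, was read at 285 and 273 CPM with ethanol against 331 CPM in each untreated library (log2 change -0.24), and Rplp0, of the large subunit, at 753 and 687 CPM against 862 and 830 CPM (log2 change -0.23). The count rested on single libraries, with 4 lower without library 4, 5 without library 7 and 20 without library 3.

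Of 34 lysosome and autophagy genes 4 rose and 6 fell, against 8.11% and 6.84% of all genes. Without library 4, 2 were higher and none lower, without library 7, 1 was lower, and without library 8, 1 was higher and 3 were lower. Map1lc3a, an autophagosome protein, rose from 44.7 CPM in each untreated library to 55.7 and 52.5 CPM, and Wipi1, which acts early in autophagosome formation, fell from 31.2 and 31.8 CPM to 26.7 and 26.5 CPM, a call lost without library 4, 7 or 8 and with DESeq2. Of 11 genes of the mitochondrial genome 3 fell, against 6.84% of all genes, and 1 fell without library 8. Among them was mt-Nd2, which went from 205 and 215 CPM to 161 and 175 CPM (log2 change -0.32), and no member rose.

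Of 18 Hox genes, which hold positional identity, 1 rose and 1 fell, against 8.11% and 6.84% of all genes. Hoxd13 rose from 159 and 166 CPM to 196 and 181 CPM (log2 change 0.22). Hoxa7 fell by 0.75, a call lost without library 7. Of 15 imprinted genes 2 rose and none fell, against the same shares. Sgce rose by 0.22, lost without library 3, 7 or 8, and H19 rose from 0.629 and 0.590 CPM to 1.29 and 1.44 CPM. The H19 call was lost without any of the 4 libraries in turn.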
